A study of Mus musculus with 6 samples.

Results

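Cluster 6 of the control uterine epithelium was a group of 165 luminal epithelial cells, of 2583 control epithelial cells with a cluster number and 32387 control cells in all. Its members were the cells that the authors' table of cells assigned to control epithelial cluster 6 and that also had a column of unique molecular identifier (UMI) counts. The table of cells lists 168 such cells, and 3 of them had no counts and were left out. The cluster was described beside the 1743 cells of the other 8 luminal clusters, which are clusters 0, 1, 2, 5, 7, 9, 10 and 11. It stood apart from those clusters pooled in 2 ways. The share of its UMIs from the mitochondrial genome was the highest of the 9 luminal clusters, and immediate early transcripts were low, as they were in clusters 1, 2, 9 and 10.

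The uteri came from CD-1 mice at 12 months of age. Control (CO) mice received corn oil and exposed mice received diethylstilbestrol (DES, a synthetic estrogen) at 1 mg/kg/day, both under the skin on days 1 to 5 after birth. Single cells were measured in 1 CO library, made from the pooled uteri of 2 mice that were in estrus, and in 1 DES library, made from the pooled uteri of 4 mice. Spatial RNA was measured in 2 CO and 2 DES frozen sections, each from 1 mouse, and the DES sections held adenocarcinoma. Cluster 6 therefore came from 1 library of 2 pooled mice, and which cells came from which mouse was not analysed here. Because the authors clustered the cells on these counts, the levels in cluster 6 are a description, and no test was made between cells. Intervals are 95% intervals of counting error only.

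The luminal epithelium is the single layer of columnar cells that lines the uterine cavity, and glands bud from it into the stroma. It binds estrogen and progesterone, secretes into the lumen, and is the surface to which an embryo attaches. Each cell carries many copies of a small mitochondrial genome, which encodes core subunits of the respiratory chain and of ATP synthase, while most other subunits are encoded in the nucleus. Immediate early genes such as Fos, Jun and Egr1 are transcribed within minutes of a growth factor, stress or handling signal, without new protein synthesis, and their transcripts are short-lived. Cells here were released with trypsin before they were captured.

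Markers that bear on the label come first. The study limited its epithelial analysis to cells that differentially expressed Krt18, so the share of Krt18 was in part set by that choice. Epcam and Krt18 mark epithelium and do not tell luminal from gland cells. Epcam, a cell adhesion molecule of epithelia, was found in 95.6% of the 160 cells of cluster 6 that could be thinned to 3000 UMIs (95% exact interval 91.2 to 98.2%). Krt18, a keratin of simple epithelia, was found in 78.1% (70.9 to 84.3%). In the other luminal clusters, with 1731 thinned cells, the shares were 94.3% and 82.5%. As a background, 19.4% of CO stromal cells and 33.5% of lymphocytes held Epcam after the same thinning. Whether this came from free RNA was not tested. Krt18 was held by 21.1% of stromal cells, 37.1% of lymphocytes and 57.0% of mesothelial cells, the last of which line the outer surface of the uterus and express keratins. Median depth before thinning was 16393 UMIs in cluster 6, 8726.5 in stromal cells, 4033 in lymphocytes and 10436 in mesothelial cells.

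The level of Epcam, as UMIs summed over the cells and scaled to a total of 1000000 (CPM), was 997 CPM in cluster 6 and 1054 CPM in the other luminal clusters. Krt8 was at 1390 and 1708 CPM, and Krt19 at 1391 and 1400 CPM. Genes that the study gives as luminal were at similar levels too, but the study chose them from these same cells. Its luminal clusters for that choice included cluster 6, so their levels are no independent check of the label. Of 8 measured, 1 was at least 1.5-fold lower, beside 3.76% of all genes. None was at least 1.5-fold higher, beside 2.2% of all genes. The lower gene was Ifi203, an interferon-inducible gene, at 82.9 CPM against 127 CPM. Cyp21a1 was at 123 against 106 CPM, Pla2g2e, a secreted phospholipase, at 104 against 127 CPM, and Itgam, an integrin subunit, at 111 against 116 CPM.

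Of 8 gland genes measured, 2 were at least 1.5-fold higher than in the other luminal clusters, beside 2.2% of all genes. Another 2 were at least 1.5-fold lower, beside 3.76% of all genes. Both higher genes were below the level of the gland clusters. S100g, a calcium-binding protein, was at 160 CPM in cluster 6, against 70.3 CPM in the pooled luminal clusters and 55.5 to 100 CPM in the single ones. The 4 gland clusters, 3, 8, 13 and 14, held 7162, 10263, 355 and 7109 CPM. Napsa, an aspartic protease, was at 41.6 against 21.3 CPM. Prss29 and Spink1, which encode a secreted protease and a secreted protease inhibitor, were at least 1.5-fold lower, at 13.4 against 22.7 CPM and 5.29 against 10.9 CPM. The other 4 were within 1.5-fold. With only the 133 cells of cluster 6 that the authors' clustering of CO and DES epithelium together put in its cluster 14, none of the 8 was higher and 2 were lower, beside 2.84% and 4.75% of all genes.

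Markers of other cell types were within the range of the other luminal clusters, apart from the red cell markers. The summed level of 6 stromal markers was 345 CPM in cluster 6, inside the range of 211 to 521 CPM over the single luminal clusters. The 6 lymphocyte markers summed to 6.0 CPM, with Cd3e, Trbc2 and Nkg7 at 0. The 5 pericyte markers summed to 1.06 CPM, with 4 of the 5 at 0. The 6 myeloid markers summed to 46.2 CPM, of which Cd68 gave 40.6 CPM. The 4 globin genes, markers of red cells, summed to 1599 CPM against a range of 1252 to 1567 CPM in the other luminal clusters. The smooth muscle, mesothelial, endothelial and basal lists summed to 15.5, 56.8, 13.1 and 1.41 CPM, each within the range of the single luminal clusters, and Trp63, which defines basal cells, was at 0. None of the 6 stem cell genes of the study reached 10 CPM in cluster 6 or the other luminal clusters. The 20 genes of the mitotic cycle summed to 86.8 CPM against 88.7 CPM. A doublet caller marked none of the 165 cells, beside 14 of the 2583 CO epithelial cells with a cluster (0.54%). The authors had taken out doublets before, so this says little. None of the barcodes of cluster 6 recurred in the DES library, with which the CO library shared 180 barcodes.

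Cells of cluster 6 had fewer UMIs than other luminal cells. Their median was 16393 UMIs (quartiles 10862 to 20572) and 3779 genes. The medians of the other 8 luminal clusters ran from 18583 UMIs in cluster 9 to 34711.5 UMIs in cluster 2. Median reads were 37875 per cell in cluster 6 and 61269 in the other luminal clusters, and the median sequencing saturation was alike, at a fraction of 0.56 and 0.57. In all, cluster 6 held 2835111 UMIs and the other luminal clusters held 58013527.

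The share of UMIs from the 13 protein-coding genes of the mitochondrial genome was higher in cluster 6. Its median over cells was 18.4% (quartiles 15.7 to 20.9%, highest cell 24.9%). In the other luminal clusters pooled it was 10.2%. By cluster the medians were 8.06% in cluster 0, 8.70% in cluster 11, 9.47% in cluster 9, 10.1% in cluster 5, 10.7% in cluster 2, 11.01% in cluster 1, 11.9% in cluster 10 and 15.1% in cluster 7. Cluster 7 was the nearest, and its quartiles, 9.26 to 20.1%, enclosed the median of cluster 6. Of the cells of cluster 6, 152 of 165 (92.1%) lay above the 75th percentile of cluster 1. Of the 1743 other luminal cells, 86 lay above the median of cluster 6, and 41 of these were in cluster 7.

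The upper end of the distribution met a limit of the authors' quality filter. Of 12253 CO cells that passed it, none had more than 25% mitochondrial UMIs and the highest had 24.99%, while 3013 of the 20134 cells that did not pass were over 25%. All cells of cluster 6 had passed. Of these, 53 of 165 (32.1%) were over 20%, against 58 of 1743 (3.33%) in the other luminal clusters.

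**Figure D1:**
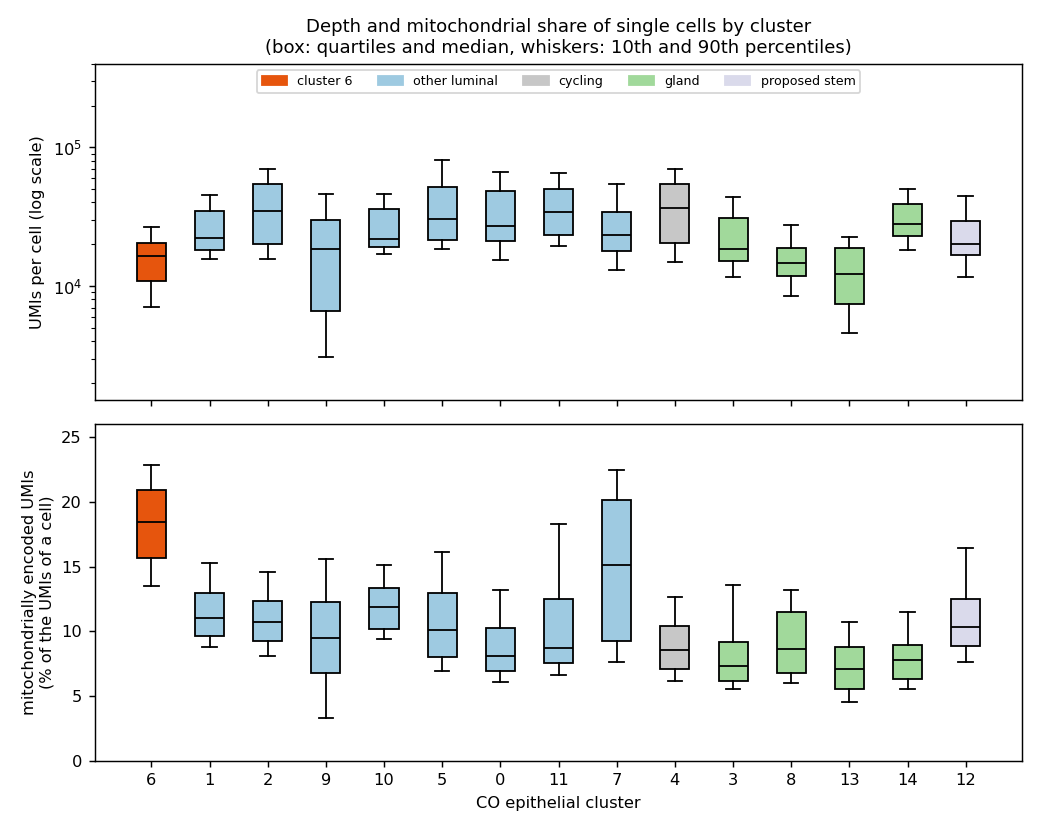
UMIs per cell (upper panel, log scale) and the percentage of a cell's UMIs from the mitochondrial genome (lower panel) in each CO epithelial cluster, with boxes from the lower to the upper quartile, a line at the median and whiskers at the 10th and 90th percentiles of cells. Cluster 6, in orange, has a median of 16393 UMIs and 18.4% mitochondrial UMIs, and among the other luminal clusters cluster 7 comes nearest, at 15.1%.

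The higher share went with fewer UMIs from nuclear genes. The median number of nuclear-gene UMIs per cell was 13260 in cluster 6 and 23374 in the other luminal clusters. The median number of mitochondrial UMIs was 2862 and 3030. Among cells of 10000 to 20000 UMIs the share was still higher, at 18.4% in cluster 6 (79 cells) against 10.98% in the other luminal clusters (408 cells), and it was 18.2% in cluster 7. Fewer nuclear-gene UMIs and the limit of the quality filter moved with the share, and their part in it was not tested.

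All 13 genes of the mitochondrial genome were at least 1.5-fold higher in cluster 6 than in the pooled luminal clusters. The median log2 ratio was 0.84, beside -0.017 over all 7759 genes with at least 10 CPM in either group. Over all genes, 171 (2.2%) were at least 1.5-fold higher and 292 (3.76%) were at least 1.5-fold lower. With totals that leave out the mitochondrial genome, 411 genes (5.04%) were higher and 192 (2.36%) lower, and the median log2 ratio over all genes moved to 0.12. Levels and ratios below use the totals over all genes unless the other totals are named, and a ratio of a nuclear gene on the totals without the mitochondrial genome is higher by the same factor for every gene.

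Of the NADH dehydrogenase subunits of complex I, mt-Nd2 was at 4420 CPM in cluster 6 and 2289 CPM in the other luminal clusters, a ratio of 1.93 (1.90 to 1.97). Over single cells its quartiles were 3543 to 5467 CPM in cluster 6 and 1754 to 3076 CPM in the others. The single luminal clusters ran from 1886 CPM in cluster 0 to 2886 CPM in cluster 7, so cluster 6 was 1.53-fold above the next. mt-Nd4 was at 9805 against 5297 CPM (ratio 1.85, 1.83 to 1.87) and 1.57-fold above the next cluster, which was cluster 10 at 6248 CPM. mt-Nd1, mt-Nd3, mt-Nd4l, mt-Nd5 and mt-Nd6 had ratios from 1.64 to 1.96. These genes encode parts of the membrane arm that pumps protons.

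mt-Cytb, the cytochrome b of complex III, was at 18125 against 9744 CPM, a ratio of 1.86. Of the cytochrome c oxidase subunits of complex IV, mt-Co3 was at 44357 against 24367 CPM, mt-Co2 at 23999 against 13480 CPM and mt-Co1 at 28986 against 18906 CPM. mt-Co1 had the lowest ratio of the 13, at 1.53. mt-Atp6, a subunit of ATP synthase, was at 39066 against 20687 CPM, a ratio of 1.89, and mt-Atp8 was at 95.2 against 55.6 CPM. The higher share was thus spread over all 4 complexes that the mitochondrial genome contributes to.

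Nuclear genes of the same complexes were not higher. Of 52 measured, none was 1.5-fold higher or lower, and the median log2 ratio was -0.10, or 0.03 with totals that leave out the mitochondrial genome. Ndufa4 was at 1326 against 1553 CPM and Cox8a at 1243 against 1529 CPM. Cox4i1 was at 1237 against 1389 CPM and Cox5a at 949 against 1108 CPM. The 80 cytosolic ribosomal protein genes and the 37 proteasome genes that were measured also held none past 1.5-fold, with median log2 ratios of -0.22 and -0.020.

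The mitochondrial ratios depended on which luminal cells were set beside cluster 6. Against clusters 1, 2, 9 and 10 alone, where 2.45% of all genes were at least 1.5-fold higher and 1.59% lower, 12 of 13 were higher, with a median log2 ratio of 0.72. Against cluster 7 alone, 3 of 13 were higher beside 5.75% of all genes, with a median of 0.48. Between cells of 10000 to 20000 UMIs, where 4.76% of all genes were higher and 6.44% lower, 8 of 13 were higher, with a median of 0.64.

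Immediate early transcripts were low in cluster 6. Of 24 genes of this list with at least 10 CPM in either group, 21 were at least 1.5-fold lower than in the pooled luminal clusters, beside 3.76% of all genes. None was higher, beside 2.2% of all genes. The median log2 ratio was -1.44. Summed over the 26 genes of the list, the level was 2945 CPM against 7570 CPM. The median over single cells was 2448 CPM in cluster 6. Clusters 1, 2, 9 and 10 had medians of 2171, 2157, 2800 and 2248 CPM, and cluster 5 had 3753 CPM. Clusters 0, 7 and 11 had 13103, 15392 and 12305 CPM. The medians thus fell at 2 levels, with that of cluster 5 between. The quartiles of cluster 5, 1938 and 12246 CPM, reached from the lower level to near the higher one. Cluster 6 was at the lower level, and 12 of its 165 cells (7.27%) lay above the 10th percentile of cluster 0.

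**Figure D2:**
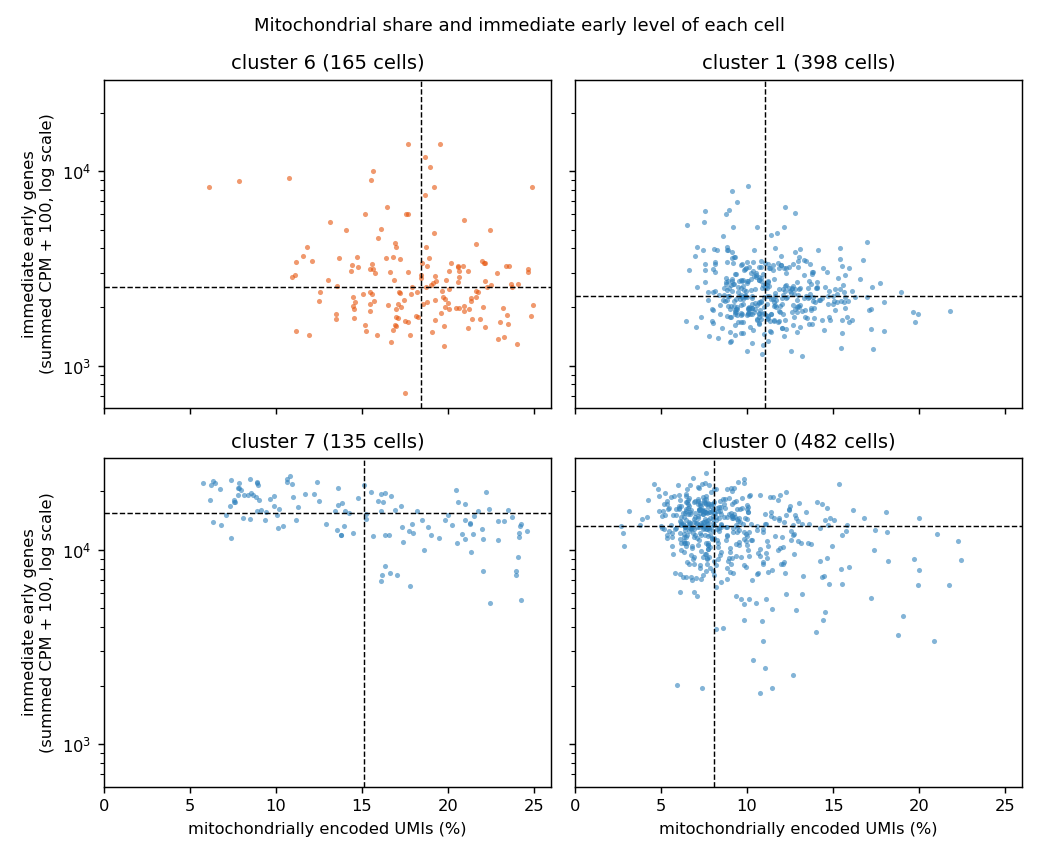
Each point is a cell, with its mitochondrial UMIs in percent on the x axis and its summed immediate early level (CPM plus 100, log scale) on the y axis, for clusters 6, 1, 7 and 0, with dashed lines at the medians. Cluster 6 lies at 18.4% and 2448 CPM, cluster 1 at a lower share and a similar level (11.01% and 2171 CPM), and cluster 7 at a wide range of shares and a higher level (15.1% and 15392 CPM).

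Short stretches of promoters show where 3 of the immediate early genes hold the TGACG core of the cAMP response element, to which the CREB and ATF factors can bind. The stretches are upstream of the start sites of Fos, which encodes an AP-1 subunit, Dusp1, a phosphatase of MAP kinases, and Btg2, an antiproliferative gene, and were chosen as members of the list with the core on the coding strand. They are 5′ to 3′ on the strand of the gene, from RefSeq on GRCm38.p6, with TGACG or the full TGACGTCA in capitals.
Fos (chr12:85473796-85473855, plus strand, 94 to 35 bases upstream): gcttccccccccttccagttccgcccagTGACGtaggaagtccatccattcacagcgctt
Dusp1 (chr17:26508581-26508640, minus strand, 168 to 109 bases upstream): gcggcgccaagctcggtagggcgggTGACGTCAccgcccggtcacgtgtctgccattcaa
Btg2 (chr1:134079287-134079346, minus strand, 191 to 132 bases upstream): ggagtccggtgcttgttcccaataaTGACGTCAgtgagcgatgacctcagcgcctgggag
In the 250 bases upstream, TGACG stood on either strand in 12 of the 21 immediate early genes with a promoter in the table (57.1%) and in 19.8% of 27025 genes. The longer TGACGTCA, which contains TGACG, stood in 3 of 21 (14.3%) and in 1.77% of all genes. The CArG box, bound by serum response factor, stood in 2 of 21 (9.52%) and in 1.62% of all genes. The pattern TGANTCA, with any base in the middle, takes in the AP-1 site and near variants of it. It stood in none of the 21 and in 7.82% of all genes. These matches describe letters in a window and not binding.

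Fos was at 310 CPM in cluster 6 and 1120 CPM in the other luminal clusters, 3.61-fold lower, and was found in 46.9% of thinned cells of cluster 6. Medians over cells were 166 CPM in cluster 6 (quartiles 76.7 to 337 CPM) and 474 CPM in the others (quartiles 104 to 1991 CPM). Single luminal clusters ran from 182 to 2310 CPM. Dusp1 was at 17.3 against 88.9 CPM and Btg2 at 185 against 453 CPM. The 3 genes come from a list in which 21 of 24 were lower, so their levels say nothing of the printed sequence.

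The 10 lowest ratios were taken among genes with at least 50 CPM in the other luminal clusters and a UMI in at least 25% of their thinned cells. Of the 10, 5 are on the immediate early list, which holds 24 of the 7759 genes measured at the lower floor of 10 CPM. The 10 were Phlda1, Hbegf, Egr1, Klf6, Fosb, Dnajb1, Zfp36, Cyr61, Jun and Ifrd1, at 3.65-fold to 5.24-fold below the pooled level. Phlda1, a gene induced by growth factors, was at 99.1 against 519 CPM. Hbegf, a ligand of the EGF receptor, was at 46.9 against 242 CPM. Egr1, a zinc finger transcription factor, was at 86.4 against 412 CPM. In the single clusters Egr1 was at 40.1 CPM in cluster 1, 53.4 CPM in cluster 2, 63.0 CPM in cluster 10 and 162 CPM in cluster 9, then at 355, 611, 816 and 937 CPM in clusters 5, 11, 0 and 7. Cluster 6 stood between clusters 10 and 9 in that order.

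Klf6, a Kruppel-like factor, was at 152 against 723 CPM, and Fosb and Jun, which pair in AP-1, were at 66.0 against 296 CPM and 140 against 536 CPM. Zfp36, whose protein speeds the decay of AU-rich mRNAs, was at 86.8 against 372 CPM. Dnajb1, a co-chaperone of HSP70, was at 57.1 against 249 CPM, the only one of 15 heat shock genes past 1.5-fold. Cyr61, a matricellular protein, was at 100.2 against 389 CPM. Ifrd1, a transcriptional co-regulator, was at 62.4 against 228 CPM. Each of the 10 was at or above the level of clusters 1, 2, 9 and 10 pooled, with ratios of 1.07 for Phlda1 to 1.89 for Jun. Of 20 immediate early genes measured in that comparison, 6 were at least 1.5-fold higher in cluster 6, beside 2.45% of all genes, and none was lower, with a median log2 ratio of 0.26. For each of the 10 genes cluster 6 was above clusters 1 and 2 and below clusters 9, 5, 0, 7 and 11.

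Genes of NF-kB and cytokine signalling were also low. Over single cells the median of the list was 726 CPM in cluster 6, between 647 and 909 CPM in clusters 1, 2, 5, 9 and 10, and between 2409 and 2868 CPM in clusters 0, 7 and 11. Of 16 measured, 12 were at least 1.5-fold lower than in the pooled luminal clusters, beside 3.76% of all genes. None was higher, beside 2.2% of all genes, and the median log2 ratio was -1.08. Nfkbia, the inhibitor that holds NF-kB in the cytoplasm, was at 337 against 693 CPM. Nfkbiz, its nuclear relative, was at 109 against 238 CPM. Tnfaip3, a deubiquitinase that restrains the pathway, was at 27.9 against 135 CPM, and Cxcl1, a neutrophil chemokine, was at 36.3 against 92.7 CPM. Against clusters 1, 2, 9 and 10, 3 of 13 were higher beside 2.45% of all genes, 1 was lower, and the median was 0.25.

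**Figure D3:**
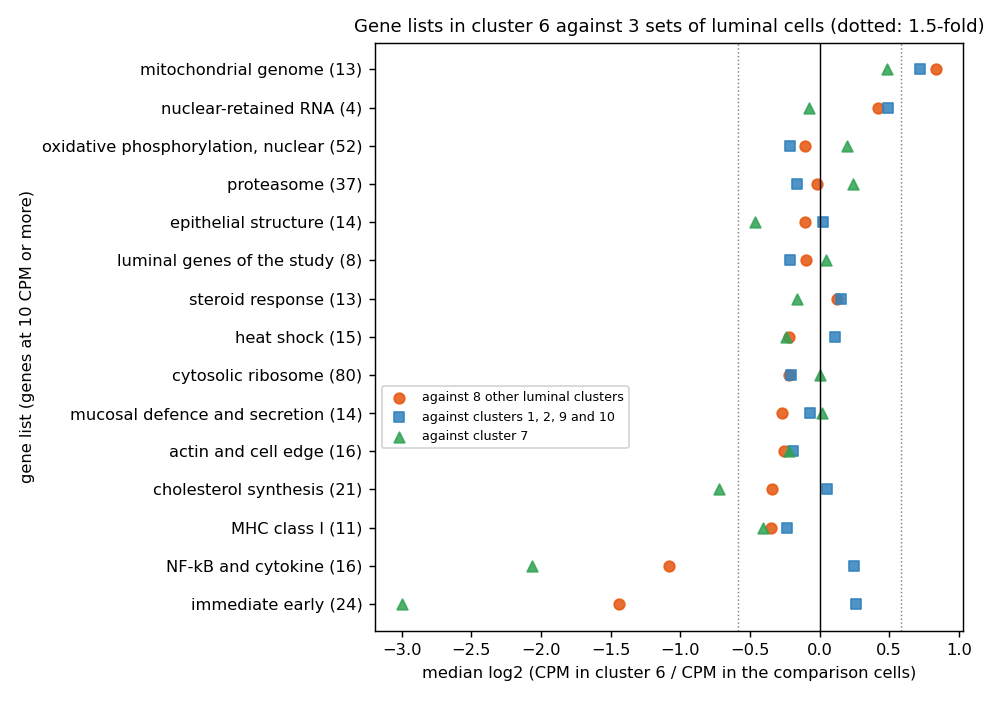
Median log2 ratio of cluster 6 to 3 sets of luminal cells for each gene list (number of genes with at least 10 CPM in brackets), with dotted lines at 1.5-fold. The mitochondrial genome is right of 0 against all 3 sets (0.84, 0.72 and 0.48), while immediate early genes are at -1.44 against all 8 clusters, 0.26 against clusters 1, 2, 9 and 10, and -3.00 against cluster 7.

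The comparison with cluster 7 brought both features together, since that cluster had the second highest mitochondrial share. All 25 immediate early genes measured were at least 1.5-fold lower in cluster 6 than in cluster 7, with a median log2 ratio of -3.00. Of 16 NF-kB and cytokine genes, 15 were lower, with a median of -2.06. Over all genes, 453 were higher and 883 (11.2%) lower in cluster 6. The 2 luminal clusters with the highest mitochondrial shares thus stood at different levels of immediate early transcripts.

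There were 1364 genes with at least 50 CPM in cluster 6 and a UMI in at least 25% of its thinned cells. Of the 15 among them with the highest ratios, 11 were of the mitochondrial genome, which has 13 genes on its list, and 4 were nuclear. These 4 were Yam1, RP23-81C12.3, Gm47283 and Snrnp48. Just inside the limit of 15 stood mt-Nd1 (1.64) and mt-Co1 (1.53), and just outside stood Xist (1.52) and Rbm5 (1.51).

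Yam1, a long noncoding RNA, was at 116 CPM in cluster 6 and 47.7 CPM in the other luminal clusters (ratio 2.43, 2.16 to 2.73). It was found in 33.8% of thinned cells of cluster 6 and 15.6% of the others. Clusters 10 and 1 were close, at 110 and 98.4 CPM, and clusters 0, 7 and 11 were at 14.3, 21.4 and 23.6 CPM. Clusters 9, 2 and 5 were at 68.6, 51.9 and 40.7 CPM. The clusters at the high immediate early level thus had the lowest Yam1, but those at the low level differed, with cluster 2 near the pooled level. Between cells of 10000 to 20000 UMIs the ratio was 1.16, and against clusters 1, 2, 9 and 10 it was 1.48, both under 1.5. Outside the luminal clusters, gland cluster 8 was above cluster 6, at 144 CPM.

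RP23-81C12.3, a gene model that carries the name of a genomic clone, was at 2996 against 1294 CPM (ratio 2.32, 2.26 to 2.37). Over single cells its quartiles were 1332 to 3783 CPM in cluster 6 and 489 to 2174 CPM in the others. Cluster 9 was near cluster 6, at 2876 CPM, followed by clusters 10 and 1 at 2273 and 2147 CPM, and cluster 0 was the lowest at 550 CPM. Gm47283, a predicted gene, was at 214 against 123 CPM (ratio 1.74), and the highest other luminal cluster was at 161 CPM. Outside the luminal clusters, it was higher in clusters 3, 8, 12 and 14, at 232, 233, 263 and 314 CPM. Snrnp48, a protein of the minor spliceosome, was at 71.6 against 42.1 CPM (ratio 1.70), and every other luminal cluster was at 52.4 CPM or less. Gland clusters 8 and 13 were higher, at 72.1 and 79.7 CPM. Reads of gene models like RP23-81C12.3 and Gm47283 may be shared with near copies, which the counts do not show.

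Of the nuclear-retained RNAs, Xist, the RNA that coats the inactive X chromosome, was at 1548 against 1021 CPM (ratio 1.52), and cluster 7 was level with cluster 6 at 1544 CPM. Malat1, of nuclear speckles, was at 12730 against 9872 CPM and Kcnq1ot1, an imprinted antisense RNA, at 293 against 211 CPM, both within 1.5-fold. Neat1, the scaffold of paraspeckles, was at 425 against 639 CPM, 1.5-fold lower. The list thus had 1 gene higher and 1 lower of 4 measured. Its summed level, 14997 CPM, ranked below the highest of the other luminal clusters, 17435 CPM. It had 2 higher and none lower with totals that leave out the mitochondrial genome, and none past 1.5-fold between cells of 10000 to 20000 UMIs or with a mean over cells. Of other genes, Ogt, the enzyme that adds O-GlcNAc to proteins, had a ratio of 1.48, or 1.62 with totals that leave out the mitochondrial genome, and was at 279 CPM in cluster 6 and 267 CPM in cluster 9. Hnrnph1, a splicing factor, had a ratio of 1.37, or 1.51 on those totals, and was at 189 CPM in cluster 6 and 188 CPM in cluster 9.

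**Figure D4:**
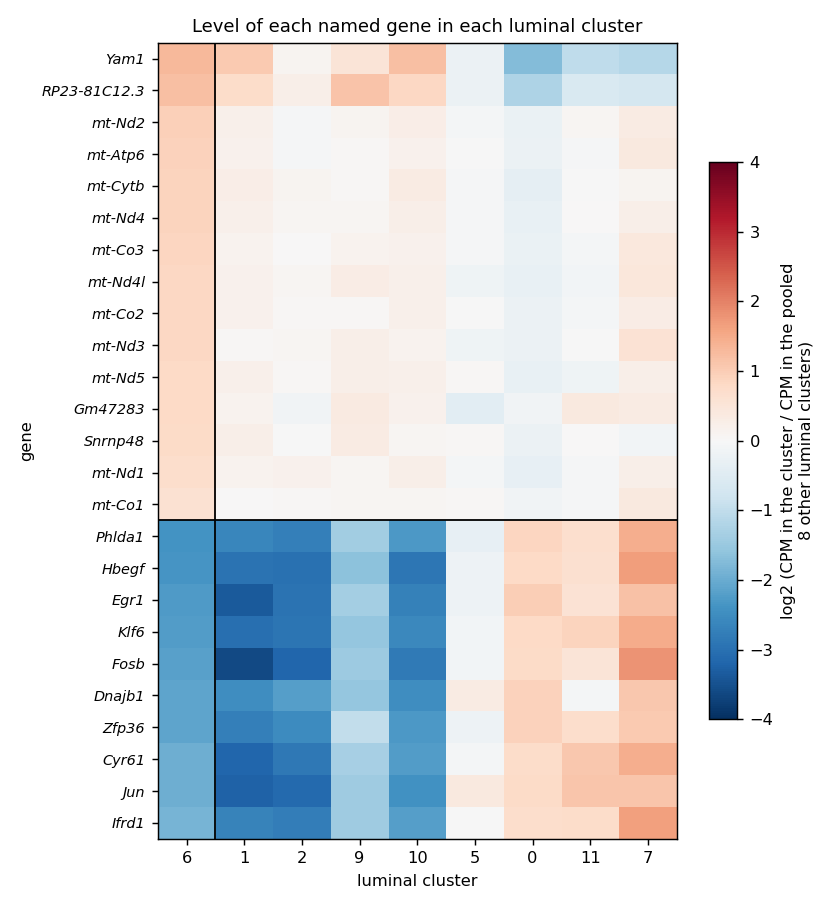
Log2 ratio of the level in each of the 9 luminal clusters (columns) to the pooled level of the 8 luminal clusters other than 6, for the 15 genes with the highest and the 10 with the lowest ratios in cluster 6 (above and below the line). The mitochondrial rows are highest in cluster 6, the Yam1 and RP23-81C12.3 rows are also high in clusters 1, 9 and 10, and the lower rows are below the pooled level in clusters 6, 1, 2, 9 and 10, above it in clusters 0 and 7 (all 10) and 11 (9 of 10), and above it for 2 of 10 in cluster 5.

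Cholesterol synthesis, which makes the sterols of membranes and hormones, was in part lower. Of 21 genes, 6 were at least 1.5-fold lower, beside 3.76% of all genes, and none was higher, with a median log2 ratio of -0.34. Hmgcs1, an enzyme early in the pathway, was at 129 against 196 CPM. Insig1, which holds back the pathway when sterols are plentiful, was at 71.6 against 123 CPM. With totals that leave out the mitochondrial genome, 2 of 21 were lower, beside 2.36% of all genes, and the median was -0.21. None of 21 was lower against clusters 1, 2, 9 and 10 alone, beside 1.59% of all genes, and the median there was 0.052.

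Lists for the surface and secretions of the luminal epithelium had few genes past 1.5-fold. Of these lists, only the actin and cell edge list summed to less than in every other luminal cluster. The structure list summed to 7160 CPM, within the range of 7070 to 9231 CPM in the other luminal clusters. Of 14 genes of epithelial structure, 1 was lower, the tight junction protein Cldn4 (55.4 against 196 CPM), and Cldn7 was at 667 against 952 CPM. Of 14 mucosal defence and secretion genes, 3 were lower and none was higher, beside 3.76% of all genes lower, and the list summed to 25390 against 32455 CPM. Sprr2b, a small proline-rich protein, was at 171 against 278 CPM, Lcn2, a siderophore-binding lipocalin, at 6604 against 8452 CPM, and Ltf, lactoferrin, at 2744 against 2647 CPM. Of 16 actin and cell edge genes 1 was lower, Actg1 at 2054 against 3176 CPM, and the list summed to 19404 CPM, under the range of 21636 to 27717 CPM in the other luminal clusters. Against clusters 1, 2, 9 and 10 alone, 2.45% of all genes were higher and 1.59% lower. There none of the 14 structure genes was lower and 1 was higher, and 3 of 13 mucosal genes were lower. Of 16 actin and cell edge genes 1 was higher and 1 lower there. With totals that leave out the mitochondrial genome, none of these 16 was lower and 1 was higher, beside 2.36% and 5.04% of all genes.

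Over all genes, 2.2% were at least 1.5-fold higher and 3.76% lower than in the pooled luminal clusters. Of 13 genes of the steroid response, 1 was higher and 1 lower. Esr1, estrogen receptor alpha, was at 246 against 226 CPM, and Pgr, the progesterone receptor, at 105 against 81.5 CPM. Tsc22d3, a glucocorticoid-induced gene, was at 36.3 against 21.5 CPM and Sgk1, a kinase induced by the same hormones, at 17.99 against 31.8 CPM. None of 17 Wnt pathway genes was past 1.5-fold. The 5 Notch genes had 1 lower, Hes1 at 132 against 220 CPM. The 10 TGF-beta and BMP genes had 2 lower and the 5 EGF family genes 1 lower, Hbegf. No gene of these 3 lists was lower against clusters 1, 2, 9 and 10 alone, where 1.59% of all genes were.

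The other lists held few genes past 1.5-fold, and their counts are read beside the 3.76% of all genes that were lower. In the hypoxia list 3 of 14 were lower, among them Adm, a vasodilator peptide, at 7.41 against 39.5 CPM, and Car9, a carbonic anhydrase, at 25.8 against 42.1 CPM. In the lists for the ER stress and amino acid response, the NRF2 antioxidant response, glycolysis and p53 targets, 1 of 17, 1 of 17, 1 of 12 and 2 of 13 were lower and none was higher. The interferon list had 3 of 28 lower, MHC class I 2 of 11, and MHC class II its only measured gene, Cd74 (15.2 against 32.2 CPM). The MHC class I and NRF2 lists summed to 1357 and 6111 CPM. Both sums were below every other luminal cluster, the lowest of which had 1402 and 6127 CPM. Of 20 integrin and matrix genes, 1 was higher, Lamb3, a chain of laminin (33.9 against 21.99 CPM), and 3 were lower. Of 9 DNA replication genes 1 was lower. With totals that leave out the mitochondrial genome, 5.04% of all genes were higher and 2.36% lower. There none of 17 ER stress, 1 of 28 interferon, 1 of 12 MHC class I and 2 of 14 hypoxia genes were lower. At that setting 1 of 9 DNA replication genes was higher and none lower, 1 of 13 p53 targets was higher, and 2 of 20 integrin and matrix genes were higher. The lower counts of the NRF2, glycolysis, p53, MHC class II and integrin and matrix lists were as before. Against clusters 1, 2, 9 and 10 alone, none of the hypoxia, ER stress, glycolysis, p53, MHC class I, MHC class II, DNA replication or integrin and matrix genes was lower. In that comparison 2 of 28 interferon and 2 of 16 NRF2 genes were lower, beside 1.59% of all genes. Higher there were 3 of 19 integrin and matrix, 1 of 13 p53 and 1 of 9 DNA replication genes, beside 2.45% of all genes.

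Few genes set cluster 6 apart from each of the other luminal clusters. Of 1364 genes with at least 50 CPM in cluster 6 and a UMI in at least 25% of its thinned cells, 83 were highest in cluster 6 among the 9 luminal clusters. Only mt-Nd4 and mt-Nd2 were at least 1.5-fold above the next. Cluster by cluster, cluster 6 differed least from cluster 1, with 281 genes higher and 105 lower, and most from cluster 11, with 690 higher and 894 lower. Compared in the same way with the pooled remaining luminal clusters, cluster 7 had 672 genes higher and 260 lower and cluster 1 had 25 higher and 333 lower. The 171 and 292 of cluster 6 were thus within the range of the other clusters.

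Over 5444 genes, the centred log2 CPM of cluster 6 had its highest correlation with cluster 1 (r = 0.44), then clusters 9 (0.31) and 2 (0.30), and its lowest with cluster 0 (r = -0.55). Centring over the 9 clusters makes such values negative on average, so their order and not their sign is described. These are correlations across genes of 1 library, which share depth and base composition and are not independent. Without the mitochondrial genome and the immediate early genes the order of the first 3 was the same, with r of 0.39 for cluster 1, 0.29 for cluster 9 and 0.25 for cluster 2.

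The cells of cluster 6 were not all alike. In the authors' clustering of CO and DES epithelium together, 133 of the 165 (80.6%) were in integrated cluster 14, 16 in integrated cluster 0 and 11 in integrated cluster 1. The 133 had a median mitochondrial share of 19.0% and an immediate early level of 2285 CPM. The 16 had 13.6% and 2224 CPM, and the 11 had 19.0% and 8920 CPM. Integrated cluster 14 held 217 CO cells, of which 61.3% were of cluster 6 and 31, 22 and 14 came from clusters 2, 9 and 1. With these 133 cells alone the median log2 ratio of immediate early genes to the other luminal clusters was -2.29.

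When the 2583 epithelial cells were clustered again from the counts, cluster 6 did not return as a cluster. At a resolution of 1, which gave 15 clusters, 91 of its 165 cells (55.2%) fell in 1 rebuilt cluster of 544 cells, of which 16.7% were of cluster 6 and 307 cells were of cluster 1. Its cells were spread over 9 of the rebuilt clusters. Without the mitochondrial genome among the genes used, 45.5% fell in 1 cluster. The method of clustering differed from that of the authors.

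DES epithelial cells were set beside cluster 6 as values only, with 1 library per condition. The 4608 DES cells had a median mitochondrial share of 11.6% (quartiles 9.62 to 14.02%), and the medians of the 16 DES clusters ran from 7.90 to 13.2%. None reached the 18.4% of cluster 6. The median immediate early level was 1418 CPM, and 1 DES cluster, number 9, had 12401 CPM. Fos was at 183 CPM, Yam1 at 143 CPM and RP23-81C12.3 at 1815 CPM in DES epithelium, against 310, 116 and 2996 CPM in cluster 6.

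The named genes were also measured in the sections, which the clustering had not used. There UMIs were summed over all spots, so epithelium, stroma and muscle are read together, and fewer cells of a type cannot be told apart from less RNA per cell. Epcam was at 451 and 256 CPM in the CO sections and 435 and 501 CPM in the DES sections, so the groups overlapped. The mitochondrial genome took 0.798 and 0.863% of the UMIs in CO sections and 0.902 and 1.07% in DES sections. No section approached the median shares of the single cells. The sections were frozen tissue measured with another assay than the cells released with trypsin, so the shares cannot be set against each other.

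The study reports a large tissue fold in a CO section and limited identification of clusters in a DES section. It relied on the other section of each group for most of its analyses. Here all sections were kept as equal replicates, and the affected ones were not matched to replicate numbers. Whether these defects moved the counts below was not tested. With edgeR's quasi-likelihood test and Benjamini-Hochberg adjustment over 14098 genes, 376 (2.67%) were higher and 371 (2.63%) lower in DES sections than in CO sections. These counts were 14 and 0 without DES section 1, 3 and 0 without DES section 2, 1311 and 1508 without CO section 1, and 1148 and 1188 without CO section 2. None of the 15 genes highest in cluster 6 passed, with adjusted p from 0.28 to 0.97, and none was under 0.05 unadjusted or passed with DESeq2. mt-Nd4 was at 323 and 310 CPM in the CO sections and 347 and 505 CPM in the DES sections. RP23-81C12.3 was at 1092 and 1115 CPM in CO and 979 and 1045 CPM in DES sections (adjusted p = 0.33 with edgeR). Of the 10 lowest genes 9 were tested and none passed, with 1, Dnajb1, under 0.05 unadjusted and higher with DESeq2. Dnajb1 was at 33.8 and 27.8 CPM in CO and 70.1 and 63.0 CPM in DES sections.

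Of 23 immediate early genes tested in the sections, 1 was higher and 1 lower in DES, beside 2.67% and 2.63% of all genes. Junb, an AP-1 subunit, was at 45.9 and 48.0 CPM in CO and 126 and 113 CPM in DES sections, with a log2 difference of 1.14 ± 0.16 (SE) and an adjusted p of 0.031 with edgeR. Ier3, an early response gene that modulates cell death, was at 327 and 246 CPM in CO and 85.7 and 72.1 CPM in DES sections, with a log2 difference of -2.08 ± 0.23 (SE) and an adjusted p of 0.022 with edgeR. The groups did not overlap for either gene. Of the 26 genes of the list, 9 had both DES sections above both CO sections, 3 had both below and 14 overlapped. The share over all genes was not computed, so the lack of overlap adds little to these 2 calls. Both calls were lost when either DES section was left out, with edgeR adjusted p of 0.25 and 0.29 for Junb and 0.15 and 0.17 for Ier3, and that of Junb also with a replicate block (adjusted p = 0.065 with edgeR). Of 25 NF-kB and cytokine genes tested with edgeR, 2 were higher in DES, Icam1 and Cxcl3, beside 2.67% of all genes. Icam1, an adhesion molecule for leukocytes, was at 21.2 and 18.3 CPM in CO and 64.3 and 53.1 CPM in DES sections (adjusted p = 0.031 with edgeR). Cxcl3, a chemokine, had 3 and 2 UMIs in the CO sections and 115 and 37 UMIs in the DES sections (adjusted p = 0.044 with edgeR). The call of Cxcl3 was lost without any 1 section, with edgeR adjusted p from 0.052 to 0.20, and that of Icam1 without either DES section (0.25 and 0.20). DESeq2, which called 5.26% of all genes higher and 6.23% lower, called 6 of the 30 genes of the list higher. Of these Cxcl2 was not tested with edgeR. Of 12 mitochondrial genes tested none passed.

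**Figure D5:**
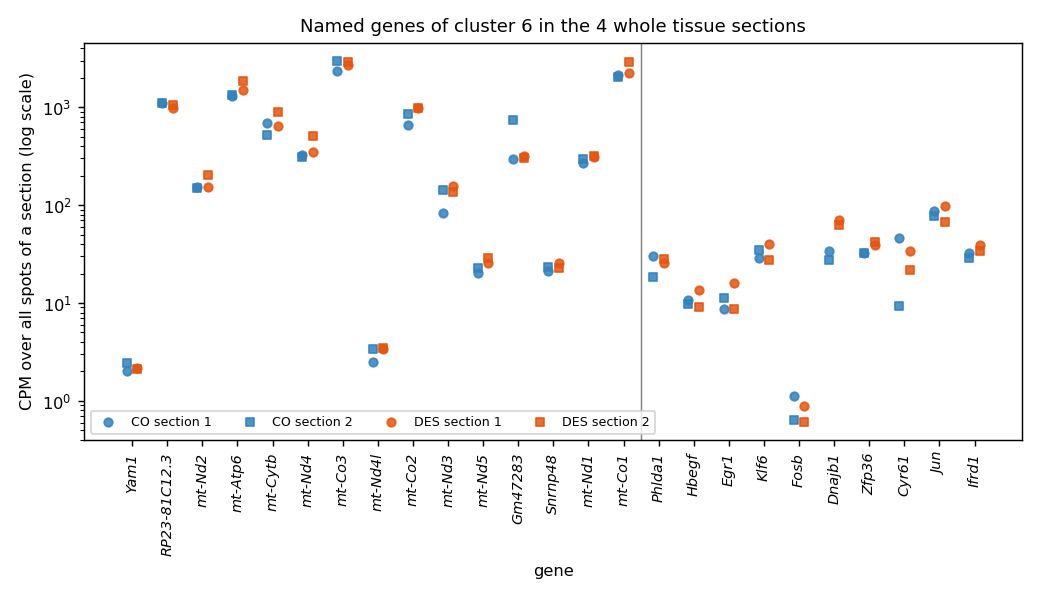
CPM over all spots (y axis, log scale) of the 15 highest (left of the line) and 10 lowest genes of cluster 6 in the 2 CO (blue) and 2 DES (orange) sections, circles for replicate 1 and squares for replicate 2. The groups overlap or lie close for most genes, and Dnajb1 has its CO sections at 33.8 and 27.8 CPM below its DES sections at 70.1 and 63.0 CPM.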

How the data were processed

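Single cells and tissue sections were measured with 10x Genomics assays. The authors made the counts with Cell Ranger 3.0.1 for cells and Space Ranger 1.2.2 for spots, on mm10, and each count is a number of UMIs. The deposited counts of both are not normalized, and cover 24077 genes in the cells and 30828 in the sections. The deposited sequencing saturation is a fraction per cell. The authors used DropletUtils to look for swapped barcodes and scran to take out doublets, clustered cells with Seurat and gave each cell a quality flag, and the clusters were taken as they gave them. The members, the gene lists and the tests were chosen with earlier results of these data known.

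The UMIs of all cells in a group were added and expressed as CPM. Exact Poisson 95% intervals were given for levels and conditional exact intervals for ratios. A gene was measured at 10 CPM or more in either group, and past 1.5-fold counted as higher or lower. Shares of cells were computed after thinning to 3000 UMIs (seed 20230), with exact Clopper-Pearson 95% intervals. The named genes were the 15 highest and 10 lowest ratios among genes with at least 50 CPM and a UMI in 25% of thinned cells, the cell type markers, and the 4 members of each list with the most CPM. Others named were chosen after their values were seen. The lists are 40, and a list counts only its members in the table. Clusters were rebuilt with scanpy 1.11.5 and leidenalg 0.10.2, and doublets called with Scrublet, which marked 1692 of 32387 CO cells.

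Section sums were tested with edgeR 4.0.16 (TMM, filterByExpr, quasi-likelihood test, Benjamini-Hochberg adjustment at 0.05), with DESeq2 1.42.0 as an alternative. The sections held 12506177 and 11032957 UMIs (CO) and 9117099 and 9880021 UMIs (DES). With 2 sections against 2 no exact permutation test could pass 0.05, and the p-values rest on a spread pooled over genes. Counts were also simulated with 1 dispersion for every gene, and 4-fold changes were set only in genes with higher counts. There 188 of 200 changed genes were recovered among the 14116 genes tested of the sections. Spread in the real sections differs between genes, so this share does not carry over to the named genes. With 1 library per condition there was no test between cells. Promoter sequences came from RefSeq, which held 21 of the 26 immediate early genes and 23 of the 30 NF-kB and cytokine genes.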

Additional observations from a re-analysis of the deposited data

How the results depend on the processing

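The count of genes at least 1.5-fold higher and lower in cluster 6, 171 and 292, moved with the settings. It was 411 and 192 with totals that leave out the mitochondrial genome, 22 and 102 at a floor of 50 CPM, 1092 and 930 at a floor of 1 CPM, 453 and 883 against cluster 7 alone, and 365 and 494 between cells of 10000 to 20000 UMIs. With a mean over cells 282 were higher, and with totals without the 20 most abundant genes 415 were higher. Against all other CO epithelial cells 461 were lower, and against clusters 1, 2, 9 and 10 alone 123 were lower.

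Against clusters 1, 2, 9 and 10, the direction of the 10 lowest genes turned, to ratios of 1.07 for Phlda1, 1.36 for Hbegf, 1.52 for Egr1, 1.42 for Klf6, 1.85 for Fosb, 1.11 for Dnajb1, 1.21 for Zfp36, 1.67 for Cyr61, 1.89 for Jun and 1.56 for Ifrd1. The median log2 ratio turned to 0.26 for immediate early genes and 0.25 for NF-kB and cytokine genes. Against cluster 7 the 1 measured MHC class II gene turned to 0.68. Of the other values of list medians 230 moved by more than their counting error and 174 did not, and of ratios 141 and 131. Of ratios and list medians past 1.5-fold, no other turned direction. Medians under 1.5-fold could turn past it. In the mitotic cycle list the median was 0.45 over 3 genes. It was -1.81 with cluster 4 added and -1.84 against all other CO epithelial cells, both over 13 genes. The gland list went from 0.056 over 8 genes to -2.62 over 9 genes against all other CO epithelial cells. More genes reached 10 CPM in these settings, so these medians are not over the same genes.

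At 5000 UMIs per cell the share of cells with a UMI was 89.7% for Krt18, 57.1% for Fos, 100% for RP23-81C12.3 and 42.3% for Yam1. Without thinning it was 99.4% for Epcam, 97.0% for Krt18, 87.9% for Fos, 100% for RP23-81C12.3 and 75.2% for Yam1. The share of cluster 6 in 1 rebuilt cluster was 78.8% at a resolution of 0.5, 19.4% at 2 and 45.5% without the mitochondrial genome.

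In the sections DESeq2 called 800 genes higher and 948 lower. Leaving out 1 section gave 3 to 1311 higher and 0 to 1508 lower, with the low counts without a DES section and the high ones without a CO section, and the cause was not tested. The log2 difference of Cyr61 was 1.37 without CO section 1 and -0.97 without CO section 2. The replicate block gave 298 higher and 229 lower. The correlation of deviations of CO 1 with DES 1 was -0.0094 over 14098 genes. With so few sections this value cannot show whether the replicate numbers pair the sections. For the named, immediate early and mitochondrial genes, Icam1 and Cxcl3, 347 section values kept their side of the threshold, 9 passed only in an alternative and 11 lost it. Nuclear-gene totals, clusters 1, 2, 9 and 10, cluster 7, integrated cluster 14 and the depth band were among the settings chosen after the data were seen. With 165 cells of 1 library, counting error is the only error that could be given.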
